A study of Arabidopsis thaliana with 72 samples.

Results

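WL_HM3 is a Hybrid Mimic line of Arabidopsis thaliana, here compared with the mid-parent value (MPV) of its parents Ws and Ler. The comparison used 9 of the 72 libraries in the series, namely the 3 WL_HM3 libraries and the 3 libraries of each parent, chosen by their labels. A further 18 libraries of the other 6 Ws/Ler Hybrid Mimics (WL_HM1, 2, 4, 5, 6 and 7) and 6 libraries of the reciprocal F1 hybrids (WsxLer and LerxWs) served to show where WL_HM3 differed from its relatives. RNA was taken from rosette leaves of 25-day-old plants that had been started on plates of Murashige and Skoog medium with sucrose and then moved to soil, in a growth room with long days. Ws (Wassilewskija) and Ler (Landsberg erecta) are inbred accessions, and Ler carries the erecta mutation. The F1 hybrids were made by hand pollination. The Hybrid Mimics are F7 lines derived by self-fertilization from the Ws/Ler hybrid, with recurrent selection for a large, F1-like rosette among plants that flowered no earlier or later than the parents. wl_sml1 and wl_sml2 are F7 lines of the same cross selected for small plants. None of the groups received a treatment. A WL_HM3 library held the leaves of 1 plant, whereas parent and hybrid libraries pooled 3 plants each, so the spread between WL_HM3 libraries is that between single plants and the spread between parent libraries is that between pools. WL_HM3 is a single selected lineage, and the data hold no second, independent derivation of it.

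A hybrid carries a genome copy from each parent at every locus, and heterosis is the gain of the F1 in size over its parents. Selfing breaks the hybrid genome up into segments that become fixed for the allele of either parent, so a Hybrid Mimic combines a large, F1-like rosette with a nearly fixed genome that the F1 does not have. Leaf size in Arabidopsis depends on cell number and cell expansion, for which new cellulose and xyloglucan must be laid down in the wall. The salicylic acid defense pathway is known to limit growth when it is active. The MPV is the level that would be seen if a gene were expressed at the average of Ws and Ler.

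The 39 libraries of the Ws/Ler system held between 17856852 and 28527725 counts, and those of WL_HM3 held 19537744, 17856852 and 20692665. Levels below are normalized counts, scaled to the same library size (20000000 counts). They can be compared between libraries but not between genes, since they are not divided by gene length. The leaf label was checked with marker genes fixed for leaf, flower, root, seed and pollen. The summed level of the leaf markers in WL_HM3 ran from 586000 to 829000, against 635000 to 861000 in Ler and 605000 to 750000 in Ws. The sum of the flower and inflorescence apex markers was 51.6 to 66.4, below the 140 to 162 of Ler and the 84.3 to 184 of Ws. AP1 and LFY were at or below 1.21 in every WL_HM3 plant. SEP3 was at 32.7, 33.8 and 32.1 in replicates 1, 2 and 3 and STM at 24.2, 10.9 and 0.974. The remaining markers of this list were at most 6.03. The root marker sum was 972 to 1740, against 776 to 1050 in Ler and 692 to 808 in Ws, with 3 of 6 markers at 0 in all 3 plants. Seed and pollen markers summed to at most 6.82.

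The 3 plants of WL_HM3 were not alike, and replicate 3 stood apart. Over 15625 genes, replicates 1 and 2 had a correlation of 0.9792, while replicate 3 had correlations of 0.9122 and 0.9437 with them. In replicate 3, 1283 genes (8.21%) lay at least 2-fold from the mean of the other plants, 816 of them above it and 467 below. Replicate 1 had 884 such genes (5.66%) and replicate 2 had 311 (1.99%). In the 18 libraries of the other Hybrid Mimics this share was 1.06% to 3.91%. Replicate 3 was the highest of all 39 libraries by at least 2-fold for 115 genes, and the next library in that count, WL_HM6 replicate 2, had 14. Median spread was not unusual, since the median SD of log2 levels was 0.204 in WL_HM3 and 0.126 to 0.207 in the other Mimic lines. The upper tail was wide: the 95th percentile of the SD was 0.836 in WL_HM3, the highest of the 12 groups, followed by Ler with 0.677. Results that rest on replicate 3 are therefore given with and without it.

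**Figure D1:**
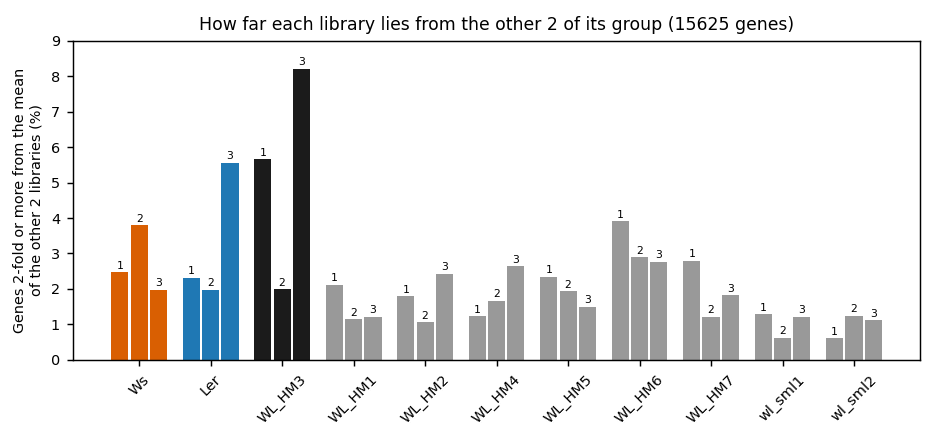
Share of 15625 genes, in percent, whose level in a library lay at least 2-fold from the mean of the other libraries of its group, with 1 bar per library of the parents, Mimics and small lines and the replicate number above it. WL_HM3 replicate 3 reached 8.21% and replicate 1 reached 5.66%, against 1.06% to 3.91% for the libraries of the other Hybrid Mimics.

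The 10 genes that differed most between the 3 plants, by the SD of their log2 level, were all high in replicate 3. CYP71A13, an enzyme of camalexin synthesis, was at 10.5, 90.4 and 5151 in replicates 1, 2 and 3. ALD1, which makes the precursor of pipecolic acid, was at 2.11, 8.44 and 932. KTI1, a trypsin inhibitor, was at 45.3, 134 and 11930. For each of these genes replicate 2 lay above replicate 1 by a few fold and replicate 3 above both by a much larger step. DIN2, a beta-glucosidase gene induced by darkness and sugar starvation, was at 0, 1.21 and 421, and HAK5, a high-affinity potassium transporter, was at 0, 0 and 272. The other 5 genes were DXPS1, TPS02, GSTU3, BGLU27 and AT1G74010, with a level of at most 59.1 in replicates 1 and 2 and of 400 to 5148 in replicate 3. These 10 genes were picked for their spread and are given as a description. The chloroplast share of the counts was 0.0174% in replicate 3 and 0.0434% in replicate 2, against 0.0144% to 0.029% in the remaining libraries of the Ws/Ler system. The part of RNA quality or of the state of a single plant in this spread was not tested.

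Compared with the MPV, 2152 of 18146 genes (11.9%) were called in WL_HM3 at an adjusted p of at most 0.05, with 1044 up-regulated (5.75%) and 1108 down-regulated (6.11%). With libraries scaled to their total counts instead of by TMM there were 578 up-regulated and 1270 down-regulated genes, and an MPV averaged on the log scale gave 1843 and 1186, so the balance of directions rests on these choices. Without replicate 3, 2169 of 18070 genes (12%) were called, 855 up-regulated (4.73%) and 1314 down-regulated (7.27%). The lists were not the same: 1467 genes were called in the same direction with and without replicate 3, which is 69.2% of the calls made with all 3 plants. Of the 1012 up-regulated genes that could be tested both ways, 408 lost their call without replicate 3, against 245 of the 1108 down-regulated genes. The count fell to 1087 without MPV replicate 2 and to 1113 without MPV replicate 3, and to 511 when only the 6 libraries compared were fitted. WL_HM3 had the lowest count against the MPV among the 7 Mimic lines, which ran up to 6237 in WL_HM4, and the F1 hybrids had 51. These counts share the MPV libraries and the difference between lines in the count itself was not tested. The p-values compare single plants with in-silico mixtures of pools. Their estimate of spread is shared over the 36 libraries of the fit, which include the F1, the other Mimics and the small lines. They do not measure the spread of WL_HM3 alone or beyond these libraries. In bulk leaf RNA, a change in the share of a cell type and a change in RNA per cell cannot be told apart.

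Among the called genes, all 3 plants lay above all 6 parent libraries in 341 (1.88% of the genes tested) and below all of them in 307 (1.69%). Without replicate 3, 224 and 244 of these were also called. A stricter reading asks for a call against Ws and against Ler in the same direction. By that measure 502 of 17907 genes (2.8%) were beyond both parents, 268 above (1.5%) and 234 below (1.31%). Without replicate 3 there were 420 (2.36%), 173 above (0.971%) and 247 below (1.39%). With total counts there were 158 above and 290 below, and leaving out Ws replicate 2 or Ler replicate 3 gave 314 and 328 in all. WL_HM3 differed from Ws in 4015 genes (22.4%), 2141 higher (12%) and 1874 lower (10.5%). It differed from Ler in 2264 (12.6%), 1312 higher (7.33%) and 952 lower (5.32%), while Ws and Ler differed from each other in 5382 (30.1%).

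The largest rises over the MPV were of 3 neighbouring genes on chromosome 2 that were silent in both parents. AT2G06562, a non-coding RNA gene, was at 301.5, 293 and 341 in the 3 plants and had no count in any Ws or Ler library. AT2G06565, which encodes an uncharacterized protein, was at 53.8, 59.1 and 39.9 against 0 in all 6 parent libraries. AT2G06570, also uncharacterized, was at 91.7, 91.6 and 82.8, with at most 0.83 in a parent. The 3 plants were close to each other in all of these genes. Against a floor of 3 counts per parent library, their mean was at least 115-fold, 18.8-fold and 32.7-fold higher than in the parents. The 12 libraries of parents and F1 hybrids held at most 1 count for each of the 3 genes. The flanking genes AT2G06555 and AT2G06560 had no count in WL_HM3, and AT2G06580 and AT2G06590 had at most 4 and 5 counts. The pattern was shared with most sister lines: mean levels of AT2G06562 were 305, 295, 320, 253 and 311 in WL_HM1, 2, 4, 5 and 7, whereas WL_HM6 was at 0. Among the genes that passed the count filter, no other gene that was silent in the parents and the F1 reached 20 in all 3 plants. The SKU5-like gene sks8 reached a mean of that size through replicate 3 alone, with 0, 0 and 71.5.

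**Figure D2:**
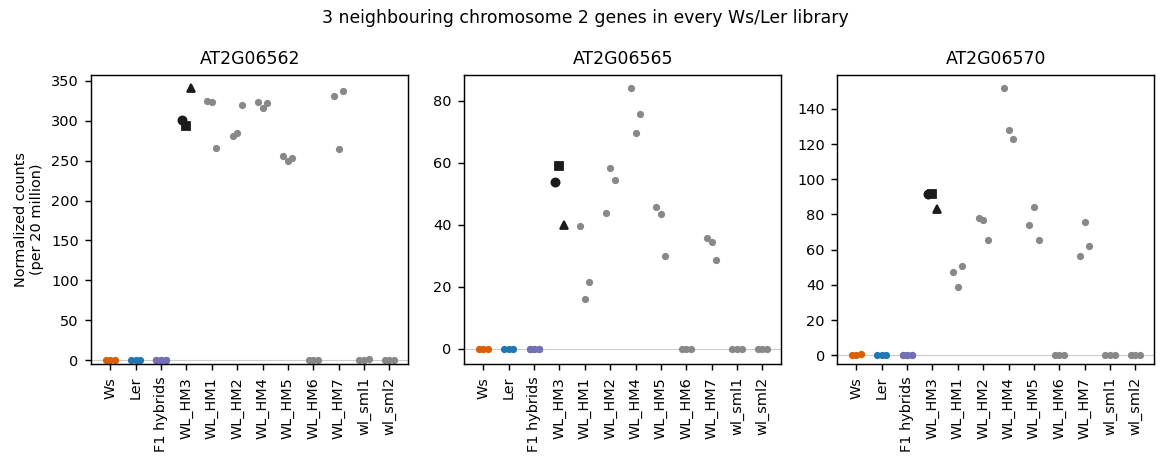
Normalized counts of AT2G06562, AT2G06565 and AT2G06570 in every library of the Ws/Ler system, by group. The 6 parent and 6 hybrid libraries lie at or near 0, the WL_HM3 plants at 293 to 341 for AT2G06562, and WL_HM6 at 0.

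The remaining 7 of the 10 largest rises comprised 4 pseudogenes and 3 genes for secreted or cell surface proteins. EARLI1, which encodes a hybrid proline-rich protein, was at 506, 1441 and 6257, above the parent range of 63.3 to 458. Its log2 fold change over the MPV was 3.68 (SE 0.89, adjusted p = 0.0068), and it fell to 2.16 (adjusted p = 0.086) without replicate 3, so the call rests on that plant. GRP9, a glycine-rich protein, was at 214, 282 and 247 against 12.2 to 154 in the parents, a log2 fold change of 2.39 (SE 0.55, adjusted p = 0.0045) with no plant standing apart. AGP7, an arabinogalactan protein of the cell wall and plasma membrane, was at 262.5, 189 and 69.2 against 19.2 to 48.8, with a log2 fold change of 2.39 (SE 0.44, adjusted p = 0.00043). Here replicate 3 was the lowest plant and still above every parent library. The pseudogenes AT3G15310 (623, 534 and 216, parents 0 to 27.1), AT4G04410 (88.5, 193 and 200, parents 3.07 to 46.1), AT2G12470 and AT2G15060 completed the 10 largest rises, with log2 fold changes of 2.48 to 5.48. Counts of pseudogenes and other near-identical copies are uncertain, because a read that maps to several places is not counted. Pseudogenes and transcribed pseudogenes made up 55 (2.57%) and 35 (1.63%) of the calls against 121 (0.669%) and 99 (0.547%) of the genes tested.

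Among the 10 largest falls below both parents, SEH, a soluble epoxide hydrolase, led with 54.8, 33.8 and 33.1. Ler had 1866, 1606 and 2349 of it and Ws 62.8, 86.2 and 108, so the 3 plants lay just under the low parent and the log2 fold change from the MPV was -4.62 (SE 0.32, adjusted p = 1.8e-11). KCS8, a 3-ketoacyl-CoA synthase of very-long-chain fatty acid elongation, was at 41.1, 10.9 and 0.974, under the parent range of 106 to 478 (log2 fold change -3.88, SE 0.65, adjusted p = 0.00014). TMM, a receptor-like protein that patterns stomata, was at 31.6, 9.65 and 5.85 against 48.2 to 203 (log2 fold change -2.85, SE 0.68, adjusted p = 0.0061). KCS8 and TMM were lowest in replicate 3, yet both were also called without it, at -3.29 (adjusted p = 0.0016) and -2.44 (adjusted p = 0.034). AT1G34060, of the pyridoxal phosphate-dependent transferases, was at 16.9, 7.23 and 23.4 against 58.8 to 450. AT4G01390, which encodes a TRAF-like family protein, was at 11.6, 26.5 and 5.85 against 63 to 559 in the parents. The remaining falls were of AT1G51270, AT5G43660, AT5G41761 and the non-coding RNA genes AT1G67105 and AT2G05075, with log2 fold changes of -2.84 to -4.26.

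Some genes for making cellulose and nucleotide sugars were up-regulated over the MPV. Of the 15 tested members of a list of cellulose synthases, UDP-glucose dehydrogenases and UDP-apiose/xylose synthases, 6 rose and none fell, beside 5.75% and 6.11% of all genes, with a median log2 fold change of 0.412 beside 0.0106. Without replicate 3, 8 rose and none fell, with a median of 0.504. CESA6, a subunit of the primary wall cellulose synthase, was at 6823, 6845 and 5390 against 2796 to 5626 in the parents. Its log2 fold change was 0.63 (SE 0.10, adjusted p = 0.00014). CESA3, another primary wall subunit, was at 7556, 7353 and 5962 against 4390 to 6540, with a log2 fold change of 0.41 (SE 0.10, adjusted p = 0.0086). CESA1, the third, was at 9128, 9544 and 7947 against 5732 to 7914 (log2 fold change 0.40, SE 0.11, adjusted p = 0.019). All 3 plants lay above all parents for CESA1, whereas replicate 3 fell within the parent range for CESA3 and CESA6. AXS1, which makes UDP-apiose and UDP-xylose, was at 3546, 3528 and 3513 (log2 fold change 0.35, adjusted p = 0.0039), with little spread between the plants. CESA2 and UGD2 rose by 0.44 and 0.40, and UGD4 was at 422, 257 and 204 without passing the test (log2 fold change 0.53, adjusted p = 0.11). The call of CESA1 was lost when any single MPV library was left out, that of UGD2 without MPV replicate 2 or 3, and 1 of the 6 calls remained when only the 6 libraries compared were fitted.

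Enzymes that loosen and remodel xyloglucan were less uniform between the plants. Of 25 tested XTH genes (xyloglucan endotransglucosylase/hydrolases), 4 rose over the MPV and none fell, beside 5.75% and 6.11% of all genes. The median log2 fold change of the list was 0.684 and fell to 0.298 without replicate 3. XTH17 was at 147, 85.6 and 22.4 against 0.77 to 38.4 in the parents (log2 fold change 2.2, SE 0.65, adjusted p = 0.026), and XTH15 at 53.8, 32.6 and 12.7 (log2 fold change 2.13, adjusted p = 0.038). Both were highest in replicate 1. XTH10 and XTH23 went the other way, with 23.2, 39.8 and 292 and with 7.38, 8.44 and 83.8. The call of XTH10 was lost without replicate 3, and XTH23 then had too few counts to be tested. None of the 4 calls remained without MPV replicate 3, and 1 remained without MPV replicate 1 or 2. XTH4 was at 3397, 2743 and 1902 (log2 fold change 1.07, adjusted p = 0.068), XTH8 at 494, 276 and 100 (0.77, adjusted p = 0.19) and XTH9 at 763, 623 and 249 (0.07, adjusted p = 0.95). In each of these genes replicate 1 was the highest plant and replicate 3 the lowest, which fell inside the parent range. Without replicate 3, XTH4 (1.26, adjusted p = 0.046) and XTH8 (1.18, adjusted p = 0.024) passed the test.

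Expansins, which loosen the wall without cutting it, gave 3 rises and 1 fall among 15 tested, beside 5.75% and 6.11% of all genes, and 5 rises and 1 fall without replicate 3 (median log2 fold change 0.21 with it and 0.556 without). EXPA5 was at 2351, 1712 and 1116 against 514 to 1612 (log2 fold change 0.76, adjusted p = 0.029), and EXPA9 at 248, 361 and 424 against 95.8 to 310 (0.97, adjusted p = 0.0048). EXPA16 fell to 101, 78.4 and 29.2, under the parent range of 131 to 923 (log2 fold change -2.61, SE 0.50, adjusted p = 0.00081). EXLA1 rose by 1.63 through replicate 3 and was not called without it. The wider list of cell wall genes that the study drew from these same samples had 14 of 36 members up and none down, and 17 up and 1 down without replicate 3. Because the list was chosen on these libraries, it is not independent evidence of its direction. Its members included AT5G45280, a pectin acetylesterase, at 1495, 1557 and 3570 against 724 to 1107 (log2 fold change 1.39, adjusted p = 6.9e-05). Against the F1 hybrids, 2 of the 15 cellulose and nucleotide sugar genes were higher and none lower, beside 10.2% and 9.54% of all genes. The share higher was thus near that of all genes. CESA6 was among the higher genes (log2 fold change 0.48, SE 0.09, adjusted p = 0.00028). Against the other Mimic lines none of the 15 was called with or without replicate 3, with a median log2 difference of -0.107 with all plants. Among all genes 16.2% were higher and 10.3% lower with 3 plants, and 4.44% and 2.35% without replicate 3.

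**Figure D3:**
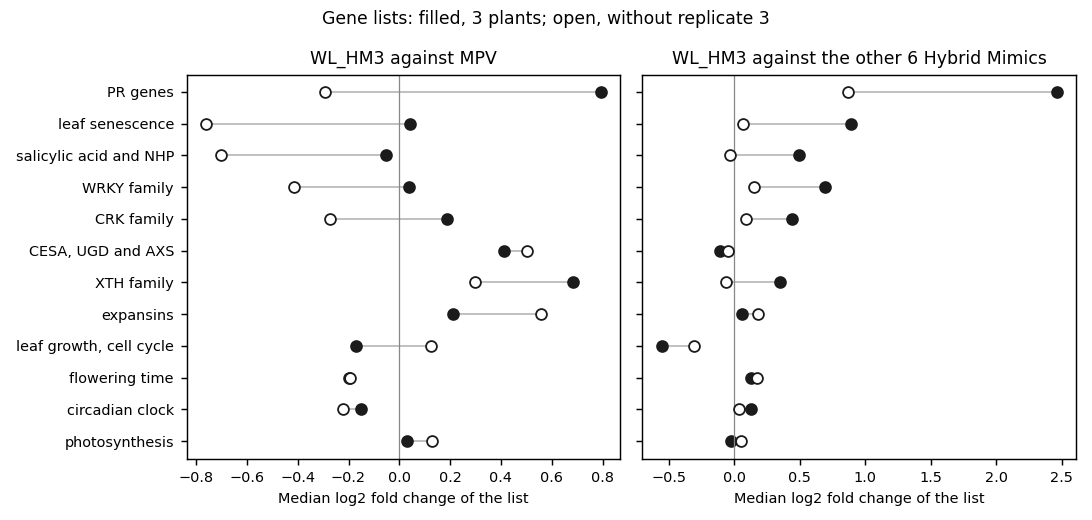
Median log2 fold change of 12 gene lists in WL_HM3 against the MPV (left) and against the other 6 Mimic lines (right), with filled symbols for all 3 plants and open symbols without replicate 3. The cellulose and nucleotide sugar list stays at 0.412 and 0.504 over the MPV, whereas the PR gene list moves from 0.793 to -0.292.

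The defense genes that answer to salicylic acid differed widely between the plants. The 5 PR genes encode pathogenesis-related proteins, of which PR1, PR2 and PR5 are markers of salicylic acid signalling. PR1 was at 215, 4245 and 24500 in replicates 1, 2 and 3, while the parents ran from 83.1 to 4378. PR5 was at 1049, 2602 and 17400 against 503 to 5039. PR2, a beta-1,3-glucanase, was at 1339, 2924 and 11550 against 993 to 6199. In all of them replicates 1 and 2 lay within the parent range and replicate 3 above it. PR3, a chitinase, was at 8.43, 102.5 and 479, and PR4 at 3422, 3537 and 9195, and here replicate 3 too stayed within the parent range. None of the 5 was called against the MPV: the log2 fold change of PR1 was 2.43 (SE 1.2, adjusted p = 0.20) and that of PR5 1.67 (SE 0.71, adjusted p = 0.12). Set against the mean of the other WL_HM3 plants, the median log2 difference of the 5 genes was -2.68 in replicate 1, -0.428 in replicate 2 and 3.39 in replicate 3.

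**Figure D4:**
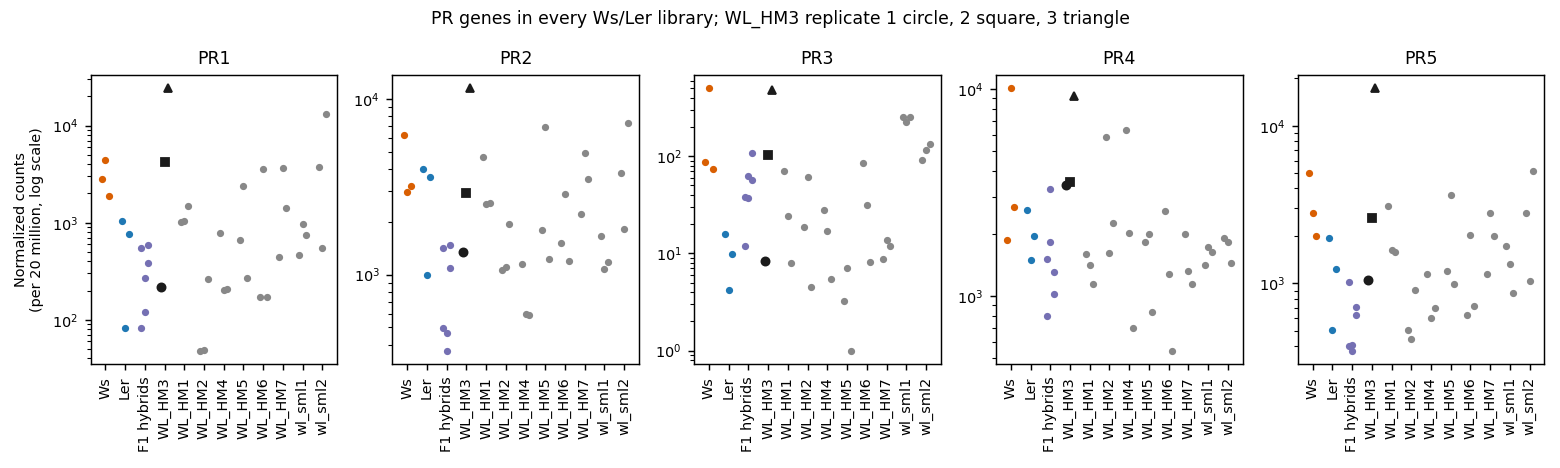
Normalized counts of PR1 to PR5 on a log scale, 1 symbol per library, with WL_HM3 replicates 1, 2 and 3 as a black circle, square and triangle beside Ws, Ler, the F1 hybrids and the other Mimic lines. PR1 covers 215 to 24500 within WL_HM3.

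With replicates 1 and 2 alone, more genes of the defense pathway were called below the MPV than with all 3 plants. Of 24 tested genes of salicylic acid and N-hydroxypipecolic acid synthesis and signalling, none rose and 2 fell with all 3 plants (median log2 fold change -0.0511), beside 6.11% lower among all genes. Without replicate 3 none rose and 6 fell (median -0.702), beside 7.27% lower among all genes. EDS1, a central regulator of this immune pathway, was at 409, 305 and 384, under the parent range of 479 to 1050 (log2 fold change -0.97, SE 0.18, adjusted p = 0.00044), and its near-identical neighbouring copy makes that count uncertain. PNP-A, a secreted natriuretic peptide, was at 32.7, 56.7 and 81.8 against 78.4 to 800 (log2 fold change -2.34, adjusted p = 0.0032). Both were called with and without replicate 3. CBP60G, a transcription factor that switches on salicylic acid synthesis, was at 26.4, 42.2 and 252. It was called below the MPV without replicate 3 (log2 fold change -2.36, adjusted p = 0.00085) and not with it (-0.68, adjusted p = 0.41). ICS1, the enzyme that starts salicylic acid synthesis, was at 401, 484 and 522, close to the MPV mean of 501 (log2 fold change -0.09, adjusted p = 0.80).

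Of 48 WRKY transcription factors tested, 1 rose and 4 fell over all 3 plants, beside 5.75% and 6.11% of all genes. Without replicate 3, 1 rose and 11 fell, beside 4.73% and 7.27% of all genes, with medians of 0.0383 and -0.416. WRKY7 was at 212, 257 and 248 against 315 to 415 in the parents (log2 fold change -0.54, SE 0.12, adjusted p = 0.0028). WRKY22, of the response to microbial patterns, was at 38, 41 and 88.7, with a log2 fold change of -0.93 (adjusted p = 0.014). WRKY31 was the single rise, at 1.05, 7.23 and 242, and its sign turned without replicate 3, to -0.59 (adjusted p = 0.78). The defense list that the study drew from these samples had 8 up and 6 down of 48 tested, and 8 up and 9 down without replicate 3. It too was chosen on these libraries and is not independent evidence. Among its members, the TIR-NBS-LRR gene AT4G16900 was at 722, 915 and 869 (log2 fold change 0.77, adjusted p = 0.00013) and the CC-NBS-LRR gene AT1G62630 at 202, 269 and 228 (-1.01, adjusted p = 2.3e-06).

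Senescence genes repeated this pattern. None of 15 rose over the MPV and 2 fell, beside 5.75% and 6.11% of all genes. Without replicate 3 none rose and 4 fell, beside 4.73% and 7.27% of all genes. The median of the list was -0.76 without replicate 3 and 0.0434 with it. SEN1, a gene induced in aging and darkened leaves, was at 387, 264 and 567, under the parent range of 700 to 6408 (log2 fold change -2.57, adjusted p = 0.0027). NAP, a NAC transcription factor of leaf senescence, was at 86.4, 109 and 286 against 143 to 1087 (log2 fold change -1.63, SE 0.43, adjusted p = 0.014). SAG13, a short-chain dehydrogenase gene of senescing and infected leaves, was at 391, 674 and 24690, with a highest parent library of 2055. Replicates 1 and 2 thus lay within the parent range of SAG13 and replicate 3 far above it. The 37 photosynthesis genes gave no call against the MPV with or without replicate 3, with medians of 0.0299 and 0.127.

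Flowering regulators differed from the MPV in both directions. Of 18 tested, 3 rose and 5 fell, beside 5.75% and 6.11% of all genes, and 2 and 5 without replicate 3. TEM2 and TEM1, repressors of FT, were both lower: TEM2 was at 140, 121 and 134 against 309 to 577 (log2 fold change -1.67, SE 0.30, adjusted p = 0.00034) and TEM1 at 344, 352 and 681 against 633 to 1532 (-1.03, SE 0.20, adjusted p = 0.00067). MAF2, a floral repressor related to FLC, was at 545, 492 and 549 against 548 to 1122 (-0.44, SE 0.09, adjusted p = 0.00077). MAF1 was higher, at 546, 528 and 627 (0.68, SE 0.14, adjusted p = 0.0022), as was FRI, an activator of FLC, at 86.4, 107 and 78.9 (0.61, adjusted p = 0.02). FUL, a meristem identity factor, fell to 64.3, 122 and 104 (-1.15, adjusted p = 0.022). FT, which encodes the mobile flowering signal, was at 42.2, 121 and 244.5 with a parent range of 58.2 to 239, and its log2 fold change of -0.23 (adjusted p = 0.84) did not pass. SOC1, a target of FT signalling, was at 2279, 3405 and 3880 (-0.17, adjusted p = 0.58). FLC had too few counts to be tested.

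LHY, RVE1 and RVE8, morning-phased MYB-like factors of the circadian clock, were below the MPV. Of 23 clock genes 2 rose and 3 fell, beside the 5.75% and 6.11% of all genes. LHY was at 660, 596 and 860 against 1004 to 1501 (log2 fold change -0.84, SE 0.23, adjusted p = 0.015), and RVE1 and RVE8 fell by 0.79 and 0.56. PRR9 (0.52, adjusted p = 0.048) and CHE (0.56, adjusted p = 0.015), which repress CCA1, were higher. Between 1 and 4 of these 5 calls remained when a single library was left out. Clock gene levels follow the time of day, and leaves were taken within a window of hours. The part of the sampling time in these differences was not tested. PIF4, a growth-promoting transcription factor that acts in warmth and shade, was at 4009, 4239 and 3155 with no call (0.10, adjusted p = 0.76), and 2 of 19 genes of the PIF and auxin list fell, HB-2 by 0.71 and SAUR20 by 3.33, the latter at 9.49, 8.44 and 7.79.

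Genes of aliphatic glucosinolate synthesis changed in both directions. Of 22 aliphatic glucosinolate genes 4 rose and 2 fell, beside 5.75% and 6.11% of all genes. AOP2, which makes alkenyl glucosinolates, was at 3909, 3203 and 2782 against a parent range of 21.8 to 3018 (log2 fold change 1.68, SE 0.34, adjusted p = 0.0013). AOP3, its neighbour that makes hydroxyalkyl glucosinolates, was at 3.16, 20.5 and 16.6, while the MPV mean was 9238 (log2 fold change -9.42, SE 0.59, adjusted p = 2.2e-12). Ler held 20790, 19990 and 14630 of AOP3 and Ws 6.46, 6.48 and 4.97, so that all 3 plants had the Ws level. MYB29, an activator of the pathway, was at 1752, 1290 and 993 against 354 to 869 (1.37, adjusted p = 0.026), and BAT5, a plastid bile acid transporter family member, at 5641, 4549 and 3561 (1.17, adjusted p = 0.046). MYB29, BAT5, ESM1 and MAM3 lost their calls without WL_HM3 replicate 1. Of the cold response genes, CBF1 fell to 1.05, 3.62 and 0.974 against 12.2 to 62.1 (-3.69, SE 0.63, adjusted p = 0.00017) and CBF2 to 31.6, 19.3 and 24.4 against 36.4 to 101 (-1.51, SE 0.31, adjusted p = 0.0015). CBF levels follow the time of day, and leaves were taken within a window of hours. The nitrate reductase NIA1 fell to 4165, 3171 and 4056 against 6335 to 8188 (-0.93, adjusted p = 0.019). In the other lists of metabolism and stress few members were called against the MPV: 1 rose and 1 fell of 11 genes for indole glucosinolates and camalexin, 1 fell of 11 flavonoid genes, 1 fell of 17 genes of iron and phosphate deficiency and 1 fell of 18 regulators of leaf growth and the cell cycle. None of 10 sulfur deficiency genes and none of 3 heat shock genes was called.

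A difference from the MPV need not be a departure from both parents. Of the 2140 called genes that were tested in both fits, 498 (23.3%) were beyond both parents. Another 470 (22%) were genes in which the parents differed and WL_HM3 was called against Ler only, and 625 (29.2%) were called against Ws only. These classes were unevenly placed along the genome. On chromosome 3, 13 genes were called against Ler only and 241 against Ws only, so that 5.12% had WL_HM3 nearer to Ws by this count. On chromosome 4 the counts were 128 and 39 (76.6%) and on chromosome 5 they were 159 and 78 (67.1%). Chromosomes 1 and 2 gave 30.2% and 56.2%, and all chromosomes together gave 42.9%. A call against 1 parent and not the other does not test that the level equals that of the other parent.

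Expression levels were also placed beside those of the parents in genes that were nearly silent in 1 parent. No genotype was called, so a level like that of a parent does not show which allele the line carries. There were 209 genes with at least a 20-fold difference between Ws and Ler, 111 high in Ws and 98 high in Ler. All 3 WL_HM3 plants had the Ws level in 125 of them and the Ler level in 61, which is 67.2% Ws among the genes that could be placed. The calls against 1 parent only gave a lower Ws share, 42.9%. On chromosomes 1 and 2 those calls gave 30.2% and 56.2%, while the placed genes gave 58.8% and 88.9%. The measures cover different genes, and the reason for the gap was not tested. The plants differed from each other in 5 genes, and 18 genes were partly between the parents. The F1 hybrids lay between the parents, with a median position of 0.482 on a scale from the low (0) to the high (1) parent, whereas the genes that WL_HM3 expressed like the high parent had a median of 0.948. On chromosome 4, 31 genes were at the Ws level and none at the Ler level. On chromosome 5 the counts were 44 and 1, on chromosome 2 they were 24 and 3, and on chromosome 1 they were 20 and 14. Chromosome 3 was the reverse, with 6 at the Ws level and 43 at the Ler level. In gene order the levels formed long runs. On chromosome 1, 10 Ler-level genes (AT1G03106 to AT1G27540) were followed by 20 Ws-level genes (AT1G28620 to AT1G66590) and 4 Ler-level genes (AT1G71380 to AT1G80555). On chromosome 2, 24 Ws-level genes (AT2G01090 to AT2G34840) were followed by 3 at the Ler level (AT2G41440 to AT2G42485). The reads were aligned to the reference accession Col, and the part of sequence differences between Ws, Ler and that reference in these counts was not tested.

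**Figure D5:**
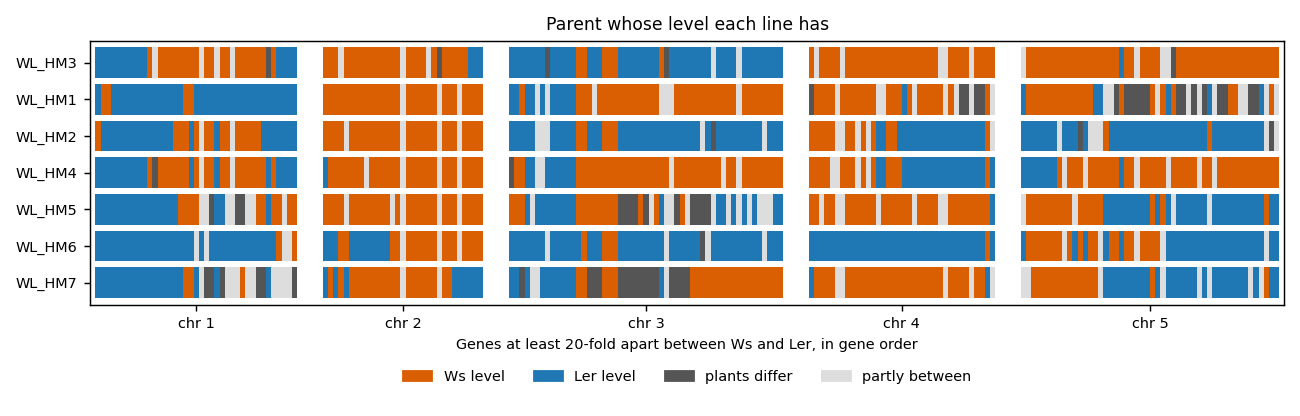
Genes with at least a 20-fold difference between Ws and Ler in gene order along the 5 chromosomes, coloured by the parent whose level each of the 7 Ws/Ler Mimic lines had. WL_HM3 is at the Ws level in 31 genes of chromosome 4 and in 44 of chromosome 5, and at the Ler level in 43 of chromosome 3.

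The genes with the highest levels among these show how far single values can lie from the MPV. AT2G25510, which encodes an uncharacterized protein, was at 24610, 16850 and 22000, with 13970 to 19750 in Ws and at most 18.7 in Ler. AT2G11240, a pseudogene, was at 2238, 2369 and 2236 beside 2110 to 2281 in Ws, and all 3 plants thus held the full Ws level. AT3G61010, of a ferritin/ribonucleotide reductase-like family, was at 2.11, 1.21 and 0.974 with 2925 to 3527 in Ws, at least 494-fold under the MPV mean when set against a floor of 3 counts. It lies on chromosome 3 and was at the Ler level. ECS1 was at 70.6, 56.7 and 48.7, with 2611 to 2773 in Ler and 48.2 to 81.2 in Ws. AT1G27540, an F-box protein gene, was at 1653, 1890 and 1769, within the Ler range of 1504 to 1984. CRK4, a cysteine-rich receptor-like kinase, had no count in any of the 3 plants. Ler had at most 2.3 of it and Ws 910 to 1282, so the MPV mean of 551 was at least 170-fold higher than the WL_HM3 floor. Reads of CRK genes can be shared between near-identical family members.

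Of the 85 genes that could be placed in all 7 lines, none had a parental level in WL_HM3 that the other 6 lines lacked. The same held for WL_HM4 and WL_HM5, while WL_HM6 had 17 such genes and WL_HM1, 2 and 7 had 3 each. Outside these 85, WL_HM3 was the single Mimic line of the 7 placed at the Ws level for PHT1;5, AT4G03500, AT4G38932, AT5G42830 and PDF1.2A and at the Ler level for AT3G48080 and AT3G62455, with at least 1 other line partly between the parents or with plants that differed. The share at the Ws level was 22.4% to 71.5% in the other lines. The large Ler run at the end of chromosome 3 (20 genes, AT3G45860 to AT3G62490) and the Ws level on chromosomes 4 and 5 are a description of 1 line.

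Against the mean of the other 6 Mimic lines, 4822 genes (26.6%) were called, 2944 higher (16.2%) and 1878 lower (10.3%). Without replicate 3 the count was 1228 (6.8%), 803 higher (4.44%) and 425 lower (2.35%), of which 1184 were shared with the longer list. This comparison thus rests largely on a single plant. It also shares the WL_HM3 plants with the comparison to the MPV. In 201 genes (1.11%) all 3 plants lay above all 18 plants of the other lines and in 159 (0.876%) below all of them, and 154 and 102 of these were also called without replicate 3. Of these 256 genes, 157 had a WL_HM3 mean within the range of the parents and 160 were not called against the MPV.

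Flowering promoters were among the genes that set WL_HM3 apart from its sister lines in all 3 plants. FT, at 42.2, 121 and 244.5, lay above every one of the 18 other Mimic plants, which ran from 1.1 to 34.1 with a median of 13.3. The log2 difference was 3.57 (SE 0.43, adjusted p = 4.6e-07), and 2.80 (adjusted p = 0.00058) without replicate 3. SOC1, at 2279, 3405 and 3880, lay above the 1137 to 2188 of the other lines (log2 difference 1.15, SE 0.12, adjusted p = 4.4e-08, and 0.97 with adjusted p = 1.4e-05 without replicate 3). SPL4, a promoter of flowering in the age pathway, was at 356, 494 and 398 against 83.2 to 315 (1.31, SE 0.21, adjusted p = 4.1e-05). For SOC1 and SPL4 all 3 plants lay within the parent range, and for FT replicate 2 did, with replicate 1 under it and replicate 3 just above it. MAF2 was lower than in every other Mimic plant, which held 637 to 921 (-0.63, SE 0.07, adjusted p = 9.9e-08). Of 18 flowering genes, 4 were higher and 2 lower than in the other lines, with the same counts when replicate 3 was left out. Among all genes 16.2% were higher and 10.3% lower with 3 plants, and 4.44% and 2.35% without replicate 3.

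Several clock genes were higher than in the sister lines. Here too the part of the sampling time was not tested. CCA1, the partner of LHY, was at 1670, 1754 and 1545, above the 653 to 1450 of the other Mimics (log2 difference 0.72, SE 0.13, adjusted p = 0.00015). LHY was higher by 0.79 (SE 0.17, adjusted p = 0.00091), RVE1 by 0.71 and RVE8 by 0.67, although LHY, RVE1 and RVE8 were below the MPV. LHY missed the threshold without replicate 3 (0.61, adjusted p = 0.06). PRR9 was higher than both the sister lines (0.45, adjusted p = 0.012) and the MPV, and missed the threshold in both comparisons without replicate 3 (adjusted p = 0.073 and 0.071). Of the 23 clock genes, 8 were higher and none lower, beside 16.2% and 10.3% of all genes, and 5 and none without replicate 3, beside 4.44% and 2.35%.

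Other genes that separated WL_HM3 from all 18 plants encoded defense proteins, transporters and enzymes. AT2G43590, of the chitinase family, was at 1243, 3009 and 2802 against 12 to 270 in the other lines and 54.5 to 1361 in the parents. The log2 difference from the other lines was 5.28 (SE 0.42, adjusted p = 1.8e-10), and the log2 fold change over the MPV was 2.31 (adjusted p = 0.026), which missed the threshold without replicate 3 (2.15, adjusted p = 0.052). GRP9 exceeded the other lines as it exceeded the parents (log2 difference 4.16, SE 0.37, adjusted p = 1.7e-09). PHT1;5, a phosphate transporter that moves phosphate between organs, was at 74.8, 83.2 and 353 against 0 to 60.2 (3.36, SE 0.33, adjusted p = 1.2e-08). SUC7, of the sucrose transporter family, was at 15.8, 57.9 and 1048 against 0 to 14.3, with 88.6, 210 and 178 in Ws and 0 in Ler. For SUC7 and PHT1;5 replicate 3 was several fold above the others, and the log2 differences without it were 5.90 (adjusted p = 0.00027) and 2.23 (adjusted p = 3.8e-05). UGT74E2, a glucosyltransferase for indole-3-butyric acid, was at 52.7, 63.9 and 401 (3.30, adjusted p = 1.3e-06), with a log2 difference of 1.70 (adjusted p = 0.023) without replicate 3, and AT5G38710 at 228, 341 and 680 (3.33, adjusted p = 1.1e-08, and 2.76 with adjusted p = 5.6e-06 without replicate 3). The pseudogenes AT4G16910 and AT4G04410 and the long non-coding RNA gene AT3G07675 were the other large rises, the last at 56.9, 62.7 and 51.6.

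PDF1.2A, a plant defensin gene of jasmonate and ethylene responses, was at 5557, 4229 and 5645, while the other lines had a median of 98.4 and a range of 7.1 to 11480. The log2 difference was 4.30 (SE 0.54, adjusted p = 1.2e-06), and 4.21 without replicate 3 (adjusted p = 2e-05). Against the MPV it was 0.68 (adjusted p = 0.66), with parents from 90.3 to 16150, and the PDF1.2 genes have near-identical copies. Of 21 jasmonate genes, 9 were higher than in the other lines with all plants, beside 16.2% of all genes, and 2 without replicate 3, beside 4.44%. None of the 21 was called against the MPV either way. CRK28 and CRK29, neighbouring receptor-like kinase genes of the defense response, were at 290, 292 and 388 and at 363, 385 and 320. They were higher than in the other lines by 1.59 (SE 0.13, adjusted p = 6.1e-10) and 1.18 (SE 0.11, adjusted p = 3.4e-09) and higher than the MPV by 0.94 and 0.87. In these the 3 plants were alike.

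The 10 largest falls below all 18 other Mimic plants again included KCS8 and TMM. KCS8 had a log2 difference of -3.67 (SE 0.59, adjusted p = 4e-05), with 70.9 to 755 in the other lines. For TMM the log2 difference was -3.02 (SE 0.61, adjusted p = 0.00062), with 46.1 to 325 in the other lines. AT1G31690, of the copper amine oxidases, was at 107.5, 63.9 and 18.5 against 133 to 1420 (-3.40, SE 0.57, adjusted p = 7.3e-05), and replicates 1 and 2 were within the parent range of 31.5 to 259. ADS1, an acyl-lipid desaturase, was at 23.2, 14.5 and 0 against 30.6 to 217 (-2.86, adjusted p = 0.00062). The GDSL lipase genes AT5G18430 and AT1G33811 had log2 differences of -2.72 and -2.60, and the glycine-rich protein gene AT1G04800 of -2.82. In all of these genes replicate 1 was the highest of the 3 plants and replicate 3 the lowest. GER3, a germin-like protein, was at 165.5, 16.9 and 2.92 (-3.56, adjusted p = 0.01), and AT1G11850 at 214, 47 and 9.74 (-2.63, adjusted p = 0.0037). Both missed the threshold without replicate 3, with adjusted p of 0.11 and 0.062. The pseudogene AT3G60965 was at 0, 0 and 0.974 against 1.03 to 185.

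The defense and senescence lists were higher than in the sister lines when replicate 3 was included. All 5 PR genes were called higher with 3 plants, with a median log2 difference of 2.46, and none of the 5 without it (median 0.872). PR1 was higher by 3.74 (SE 0.71, adjusted p = 0.00029) with all plants and by 1.61 (adjusted p = 0.31) without replicate 3. Of the 24 salicylic acid genes, 12 were higher and 1 lower with 3 plants, and 1 and 1 without replicate 3. ACD6, a regulator of salicylic acid dependent cell death, was the member higher in both (8940, 5474 and 4992, log2 differences 1.24 and 1.39, adjusted p = 0.0027 and 0.01), and EDS1 the member lower in both (-0.73, adjusted p = 0.00045, with all plants). WRKY genes gave 27 higher of 48 with all plants and 2 without replicate 3, senescence genes 10 of 15 and 1, and CRK genes 18 of 34 and 6 of 31. Leaf growth and cell cycle regulators ran the other way, with 5 of 18 lower and a median of -0.549, and 1 lower without replicate 3. Beside these counts, 16.2% of all genes were higher and 10.3% lower with 3 plants, and 4.44% and 2.35% without replicate 3.

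Compared with the F1 hybrids, 3577 genes (19.7%) were called in WL_HM3, 1846 higher (10.2%) and 1731 lower (9.54%), and 3111 (17.2%) without replicate 3, 1277 higher (7.07%) and 1834 lower (10.1%). Total counts gave 1246 higher and 2158 lower with all plants. All 3 plants lay above the 6 hybrid libraries in 1064 genes (5.86%) and below them in 1114 (6.14%). In the cold and abscisic acid list, 9 of 16 genes were lower than in the F1 and none higher, and 8 were lower without replicate 3. CBF1 fell by 3.96 and CBF2 by 1.71 on the log2 scale. NIA1 was lower too (log2 difference -1.3, SE 0.24, adjusted p = 0.00026), and all 3 genes of the nitrate list were lower than in the hybrids. PR2 and PR5 were higher by 2.58 (SE 0.55, adjusted p = 0.0014) and 3.58 (SE 0.59, adjusted p = 8.2e-05), and 1 of the 4 PR calls against the F1 remained without replicate 3.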

How the data were processed

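Raw counts per gene were deposited by the authors as 1 table of 37336 genes, without normalization or a gene filter. The authors aligned the reads with STAR 2.5.3a to TAIR10 and counted them on Araport11 genes. The strand setting of the counting was not given in the sources used here, so counts of overlapping and antisense genes are uncertain. Gene names were matched by identifier for 37051 genes, and only names and gene order were used from the annotation.

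MPV libraries were made by scaling the Ws and Ler libraries of the same number to a common size and adding and rounding them, which gave 3 libraries with equal weight for each parent. Counts were tested in R 4.3.3 with edgeR 4.0.16 (TMM and quasi-likelihood F-tests) with limma 3.58.1. A gene needed 50 counts or more in some library, which kept 18146 in a fit of 36 libraries (MPV, F1, Mimics and small lines) and 17907 in a fit of 39 with the parents in place of the MPV. A gene was called at a Benjamini-Hochberg adjusted p of at most 0.05. Log2 values for SDs used a prior count of 2.

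Depth was 17856852 to 28527725 counts per library. On simulated counts of 17909 genes for the comparison with the MPV, 37.3% of genes changed 1.5-fold, 88.1% of those changed 2-fold and 100% of those changed 4-fold were called, and 5.66% of calls were false. The changed genes were drawn from those with higher counts, and each gene had the same spread in every library. A plant that stood apart, as WL_HM3 replicate 3 did, was not simulated. These shares therefore do not cover such a plant or changed genes with few counts.

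Named genes were the 10 largest rises and falls against the MPV and against the other Mimics among called genes with a mean of at least 50 in the higher group and all 3 plants outside the compared libraries, the 10 genes of largest SD, called members of gene lists with fixed additions (the PR genes, FT, SOC1, FLC, PIF4, CESA1, CESA3, UGD4, XTH4, XTH8, XTH9), and the highest genes with a parent-like level. Further genes were chosen after their values were seen: members of the lists beyond these, the flanking genes, CRK4, sks8, AP1, LFY, SEP3 and STM. The comparisons, gene lists and members were chosen with earlier results of these data known. Alternatives were DESeq2 1.42.0, total-count scaling, other filters, a log-scale MPV, rotated parent pairs, a replicate block, and leaving out each library. Those without replicate 3 for gene lists and for genes outside the compared libraries were added after seeing the data. Sequences were not analysed here.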

Additional observations from a re-analysis of the deposited data

Results flagged for a closer look

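In 6 genes WL_HM3 was called against the MPV in one direction while the means of all other 6 Mimic lines lay on the opposite side. At least 4 of these lines were also called against the MPV. A call in the contrast of WL_HM3 with these lines was part of the condition too. The adjusted p-values of that contrast below are therefore no further test of these genes. AT2G43590, of the chitinase family, exceeded the other lines by 5.28 on the log2 scale (adjusted p = 1.8e-10). IAGLU, which conjugates auxin with glucose, was at 564, 538 and 745 with an MPV mean of 420 and exceeded the other lines by 1.19 (adjusted p = 6.6e-09), although without replicate 3 it was not called against the MPV (adjusted p = 0.12). AT5G38610, of the invertase/pectin methylesterase inhibitors, was at 163, 137 and 133 with an MPV mean of 81.3 and a log2 difference of 1.76 (adjusted p = 5.8e-08). AT5G65650, a putative sugar transporter, was at 591, 546 and 537 with an MPV mean of 411 and a difference of 1.02 (adjusted p = 9.6e-09). In the opposite direction, FAS2, a subunit of the chromatin assembly factor CAF-1, was at 127.5, 56.7 and 49.7 with an MPV mean of 185 and a log2 difference of -1.83 (adjusted p = 2.3e-08), and 181 to 378 in the other lines. The carboxypeptidase-like gene scpl42 was at 356, 293 and 242 with an MPV mean of 477 and a difference of -1.09 (adjusted p = 3.2e-07). Parent libraries ran from 224 to 768 for IAGLU, 44.45 to 154 for AT5G38610 and 213 to 687 for AT5G65650. For FAS2 they ran from 49.8 to 320 and for scpl42 from 271 to 670. The WL_HM3 mean of each of these genes lay inside its parent range. All 6 genes were picked because they met these conditions, so their opposite directions and adjusted p-values are a description.

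Among the 6 F1 libraries, 5 of 49 named genes had a library far from the others. The limit used would flag about 1 in 20 independent genes with normally distributed log2 levels. The named genes were picked and can vary together, so this count was not tested against chance. CESA1 and CESA3 were both low in LerxWs F1 replicate 2, at 5820 and 4910, while the other 5 hybrid libraries held at least 8000 and 6100. GRP9 was at 22.6 in WsxLer F1 replicate 2 and at least 57.5 in the others. AT2G15060 was at 24.9 in WsxLer F1 replicate 3 and at least 47.6 in the others. XTH8 was at 330 in WsxLer F1 replicate 1 and at most 194 in the others.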

How the results depend on the processing

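The number of genes called against the MPV was 4788 at an unadjusted p of at most 0.05, 1362 when every library had to reach 50 counts and 511 when only the libraries compared were fitted. It was 3029 with an MPV on the log scale, 2761 with DESeq2, and 1087 to 2169 over the leave-outs of single WL_HM3 or MPV libraries. The count against the other Mimics was 3080 with 50 counts required in every library, 1228 to 5860 without a WL_HM3 replicate and 3914 to 5200 without a line. Against the F1 it was 5848 unadjusted, 2352 with 50 counts in every library, 1508 for only the groups compared, and 2950 to 3834 over leave-outs. Beyond both parents these counts were 1493, 300 and 61, and 314 to 595 over leave-outs. With the replicate number as a block the counts were 2244, 4848, 3711 and 509 in that order. Same-numbered WL_HM3 and MPV libraries did not deviate together (correlations 0.205, -0.0835 and -0.00822). With the F1 libraries the correlations were 0.581, 0.0508 and 0.425 for WsxLer and -0.021, 0.00258 and 0.51 for LerxWs, so not every pair deviated together and the numbers were not taken to pair the samples. Under the block 4 named genes lost their call against the MPV (XTH23, PRR9, CHI and CRK12), 1 gained one (XTH4), and 7 lost it against the other Mimics (PR2, SWEET15, SAG113, RBCS1A, RBCS1B, TAT3 and XTH17). The median SD was 0.184 with the stricter filter and the Ws share of parent-like genes 64.5% with a 50-fold limit.

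Signs turned in 21 cases when a single library was left out, and the cause was not tested. The log2 fold change from the MPV ran over these leave-outs from -0.586 to 4.37 for WRKY31, -0.704 to 1.08 for PR2, -1.075 to 2.08 for PR3 and -0.292 to 2.19 for PR5, each negative without replicate 3. It ran from -0.998 to 0.202 for FT and -0.344 to 0.0306 for SOC1, both positive without replicate 1, and from -0.244 to 0.419 for XTH9, negative without WL_HM3 replicate 1, WL_HM3 replicate 2 (-0.0324) or MPV replicate 2 (-0.0632). The difference from the other Mimics turned negative without replicate 3 for 12 genes: XTH18 (-0.0684 to 2.43), ALD1 (-1.378 to 5.14), FMO1 (-1.714 to 3.95), PBS3 (-0.372 to 1.85), SAG113 (-0.135 to 2.67), NAC092 (-0.986 to 2.47), CYP71A13 (-0.463 to 5.28), PAD3 (-0.970 to 4.08), TAT3 (-0.584 to 2.69), JAZ10 (-0.0101 to 2.16), PAP17 (-0.478 to 1.89) and WRKY75 (-0.588 to 5.25). Of 97 named genes against the MPV, 32 kept their call or lack of one under every alternative in which they were tested, CESA6, TEM2, MAF2, EDS1, CBF1, AOP2, AOP3 and CRK28 among them. Of 131 against the other Mimics, 53 did, FT, SOC1, CCA1, KCS8, TMM and PDF1.2A among them. With 3 plants, changes near 1.5-fold were often missed.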
